A study of Mus musculus with 2 samples.

Results

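The genes described here encode the machinery that takes newly made secretory and membrane proteins into the endoplasmic reticulum (ER) and packs them into transport vesicles. They were chosen by name, from a list of 46 genes in 7 subgroups. A gene was represented by the array probe set annotated to it alone, called a probe here, and by the probe with the highest mean level where there were several. Of the 46 genes, 44 were found this way among 19938 measured genes. Srp54a and Sec61g had only probes annotated to several genes (2 and 4 probes), so no value is given for either. All 44 passed a filter on low levels that kept 11924 genes, set at a mean log2 level of 5.44, the 40th percentile of probes with 1 gene.

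Liver RNA of a wild-type pool was compared with that of a pool labelled FHL2-/-, the homozygous knockout of Fhl2, a LIM-domain protein. Each pool held RNA from the left lobe of 3 male mice aged 10 to 11 weeks on a hybrid Black Swiss/129-SV/J background, and was hybridised to 1 Affymetrix expression array. The labels name no exon, promoter or Cre line for the allele. Pooling hides the spread between mice, there are no replicates, and no p-value can be given. Every value below is a difference between these pools.

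Ribosomes that begin to make a secretory protein are caught by the signal recognition particle, which recognises the signal sequence and docks on its receptor at the ER membrane. The chain then enters the Sec61 channel, loses its signal sequence to signal peptidase and receives N-linked sugars from oligosaccharyltransferase. COPII coats bud vesicles from the ER toward the Golgi, and COPI coats return membrane and escaped residents. Hepatocytes depend heavily on this route, since they secrete most plasma proteins.

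Some of these genes are known targets of ATF6 and XBP1, the transcription factors of the unfolded protein response, so the RefSeq promoter table of assembly GRCm38.p6 was searched for their binding motifs. The table holds 32851 promoters of 250 bases before and 50 after a start, with 42 promoters for 39 of the 46 genes. The motifs were the ER stress element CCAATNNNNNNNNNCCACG, the ER stress element II ATTGGNCCACG and the ATF6 and XBP1 site TGACGTGG, each as exact letters on both strands. The first was in 0.119% of all promoters, the second in 0.0365% and the third in 0.676%. The first 2 were in 0 of the 42 promoters here. The third was in 4 of the 42, those of Sec24d, Sec23a, Copb1 and Copb2. A match is a description of letters and not a measured site.

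The 4 matches are shown because they set COPII and COPI genes side by side, each with 11 bases on either side, turned so that the motif, in capitals, reads as spelled above. They lie at chr3:123267459-123267488 (+ strand, Sec24d), chr12:59011993-59012022 (- strand, Sec23a), chr7:114254690-114254719 (+ strand, Copb1) and chr9:98563713-98563742 (- strand, Copb2).
Sec24d: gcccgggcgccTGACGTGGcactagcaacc
Sec23a: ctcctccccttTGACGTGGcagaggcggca
Copb1: aagtccttggcTGACGTGGaagggggcggg
Copb2: ggccaacccacTGACGTGGaacttccggga

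Counted from the first transcribed base as 1, the motif spans bases -26 to -19 in Sec24d, -28 to -21 in Copb1, -7 to 1 in Copb2 and 7 to 14 in Sec23a. Among these 4 genes Sec24d was at -0.33 on the log2 scale, knockout-labelled minus wild-type, Copb2 at -0.088, Copb1 at -0.030 and Sec23a at 0.13. Genes with the same 8 letters near their start lay on either side of 0, and a role of the motif was not tested. Of the 4, only Sec24d lay further from 0 than 0.143, the SD between probes of 1 gene described below. For Sec24d the RefSeq gene table has the gene begin further upstream than the promoter table does, so its positions count from a start inside that longer gene model.

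As a group the machinery was slightly lower in the knockout-labelled pool. The median difference of the 44 genes was -0.054 on the log2 scale, with quartiles of -0.15 and -0.0027, against a median of 0.04 over the 11924 genes (quartiles -0.074 and 0.14). Below 0 were 34 of the 44 (77.3%), against 40.4% of all genes. Below the median of all genes were 36 of the 44 (81.8%). Making the arrays' medians equal, called the common median shift here, cannot change this count, since it moves every gene alike. It added 0.041 to every difference, which left the group's median at -0.013 and 25 of the 44 below 0 (56.8%, against 30.8% of all genes). Genes within the members' own range of levels, mean log2 6.51 to 11.3, had a median of 0.056, and 34.9% of these 8098 genes were below 0.

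At least 1.2-fold lower, which is 0.26 on the log2 scale, were 5 of the 44 genes (11.4%), against 6.16% of all genes and 3.72% of those in the members' range of levels. They were Sec23b, Srprb, Sec24d, Ssr1 and Srp68. After the common median shift Srp68 was at -0.23 and 4 genes remained past this threshold. At least 1.2-fold higher was 1 gene, Spcs1 (2.27%, against 8.66% of all genes and 8.35% in that range of levels). At 1.5-fold there were 0 lower and 0 higher, against 0.335% and 0.621% of all genes.

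Repeat measurements exist only where a gene has more than 1 probe. From the 1809 probes of 660 such genes, the probe SD of a log2 difference was 0.143, which covers neither animals nor hybridisations. Of the 44 genes, 30 lay within this SD of 0, 12 were lower and 2 higher, Spcs1 and Dad1, against 15% of all genes lower and 25.2% higher by more than this SD. Beyond 2 such SD, 0.286, were Sec23b, Srprb, Sec24d and Ssr1 on the lower side and Spcs1 on the higher side, against 5.02% and 7.08% of all genes.

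**Figure D1:**
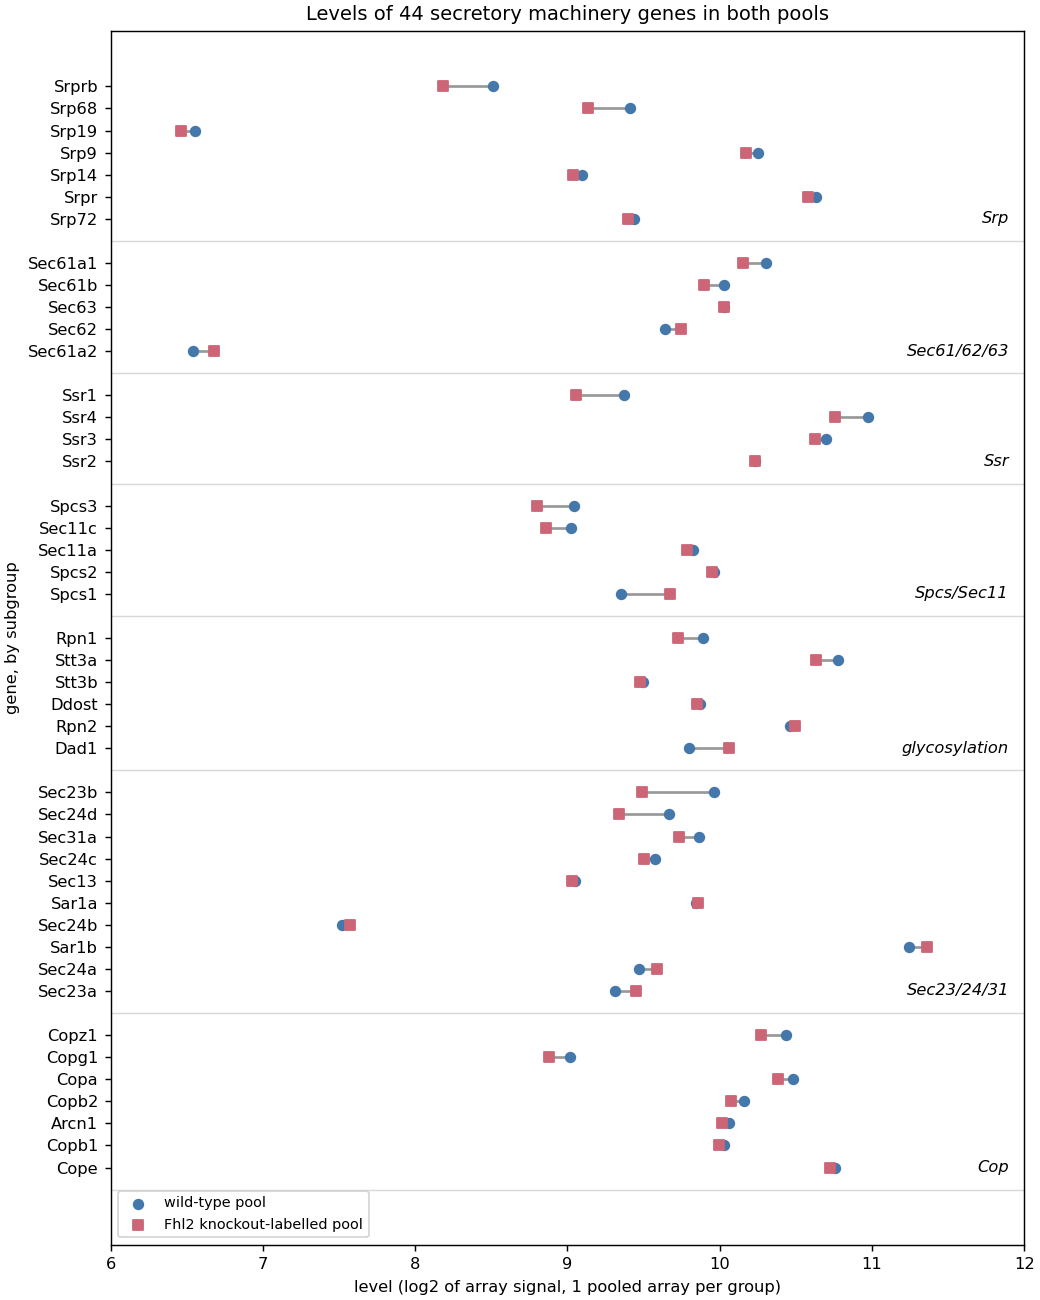
Log2 level of each of the 44 genes in the wild-type pool (circles) and the Fhl2 knockout-labelled pool (squares), by subgroup, with 1 array per group and no error bars. The longest line is that of Sec23b, from 9.97 to 9.49. Levels may be read within a gene and not between genes, since probes differ in brightness.

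In bulk liver, fewer cells of a type and less RNA per cell cannot be told apart. The labelled tissue matched its markers. All 11 hepatocyte markers found passed the filter, among them Alb at 13.74 and 13.67, and their summed linear signal was 1.03 times that of the wild type. Kupffer cell markers were lower in 11 of 12 genes, against 40.4% of all genes below 0. Their summed signal was 0.881 times that of the wild type, and their part in the differences was not tested. Sinusoidal endothelial and stellate cell markers had summed signals 1.09 and 0.961 times the wild type. Those of bile duct, red blood cell and neutrophil markers were 1.05, 1.19 and 0.922 times the wild type. Of these markers 3 of 6, 1 of 3 and 9 of 10 lay below the filter. The filter was passed by 11924 of all 19938 genes. Of 10 exocrine pancreas and 11 B and plasma cell markers, from cells rich in this machinery, 5 and 8 lay below it. The summed signals were 0.942 and 1.06 times the wild type, and their part was not tested either. The brightest probe of each list was picked after the values were seen. It was that of Sdc1, a cell surface proteoglycan, at 9.79 and 9.93, and that of the elastase gene Cela1, at 7.30 and 7.22. The other B and plasma cell markers past the filter, Cd79b and Tnfrsf13c, were at 5.76 and 5.90 and at 6.09 and 5.94. The 1.06 therefore rests mostly on Sdc1 and cannot be read as a plasma cell level. Fhl2 had 1 probe, below the filter, with log2 levels of 5.30 (wild-type) and 5.33 (knockout-labelled), which does not check the genotype, since the deleted part is not named.

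The signal recognition particle and its receptor, 7 genes, were lower throughout by the probe used for each, against 40.4% of all genes below 0. The median was -0.079 and the range ran from -0.33 to -0.043. A second probe of Srp9 lay above 0, as given below. Srprb, the membrane-anchored GTPase subunit of the receptor, was at 8.51 (wild-type) and 8.18 (knockout-labelled), in this order throughout, 1.26-fold lower. Srp68, which forms a heterodimer with Srp72 on the RNA of the particle, was at 9.41 and 9.14, 1.21-fold lower. Both differences exceeded the SD between probes.

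The partners of these genes differed less. Srpr, the receptor subunit that binds the particle, was at 10.63 and 10.58, a difference of -0.052 beside -0.33 for Srprb. Srp72 was at 9.44 and 9.40, a difference of -0.043 beside -0.28 for Srp68. So within the receptor and within this heterodimer 1 subunit lay beyond the probe SD and the other within it. Whether the subunits of a pair differ from each other was not tested.

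Srp9 and Srp14, which together slow elongation on the ribosome, were at -0.079 and -0.056, and Srp19, which helps assemble the particle, was at -0.091. The value of Srp9 depends on its probe. The brighter of its 2 probes gave 10.25 and 10.17, and the dimmer gave 7.73 and 7.93, a difference of 0.20 on the other side of 0. With the mean over probes Srp9 was at 0.0605 and the subgroup's median was -0.056.

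The translocon genes Sec61a1, Sec61a2, Sec61b, Sec62 and Sec63 had a median of -0.0021. Below 0 were 3 of them and above it 2, against 40.4% of all genes below 0. Sec61a1, the channel itself, was at 10.31 and 10.15, a difference of -0.15. Sec61b, a small subunit beside the channel, was at 10.03 and 9.90. Its 3 probes all gave a lower value in the knockout-labelled pool, with differences of -0.13, -0.13 and -0.31.

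Sec62 and Sec63 help short or slowly gated precursors through the channel, and Sec63 recruits the luminal chaperone BiP. Sec63 was nearly equal in the pools, at 10.03 in both, and Sec62 was at 9.64 and 9.75, a difference of 0.10. Sec61a2, a second channel gene, was at 6.54 and 6.68, the highest difference of the subgroup at 0.13. With the common median shift the median was 0.039, and without Sec61a1 it was 0.05, so no direction is given for the translocon genes as a group.

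The 4 Ssr genes, which encode the translocon-associated protein complex beside the channel, had a median of -0.15. All 4 were below 0, against 40.4% of all genes. Ssr1, the alpha subunit, was at 9.37 and 9.05, 1.25-fold lower. Ssr4, the delta subunit, was at 10.97 and 10.76, 1.16-fold lower. Ssr3 was at 10.70 and 10.62, and Ssr2 at 10.23 in both pools, with a difference of 0.038 for Ssr2 after the common median shift. The subunits of this complex thus spread from no difference to 1.25-fold, and without Ssr1 the median was -0.076, which is above those of the signal recognition particle (-0.079) and COPI genes (-0.088). With Ssr1 alone left out, the Ssr genes were thus not the lowest subgroup. With the most extreme member of every subgroup left out, the signal recognition particle was at -0.067 and COPI at -0.068, both above Ssr. Signal peptidase was then the lowest, at -0.10.

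Signal peptidase, 5 genes, held both a low and a high member. Spcs3, an accessory subunit, was at 9.04 and 8.80, a difference of -0.25 that stopped short of 1.2-fold. Spcs1, another accessory subunit, was at 9.35 and 9.68, 1.25-fold higher and the highest difference of all 44 genes. Spcs2 was at 9.96 and 9.95.

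Sec11a and Sec11c encode alternative catalytic subunits. Sec11c was at 9.02 and 8.86, a difference of -0.16, and Sec11a was at 9.83 and 9.79, a difference of -0.038. The subgroup's median, also -0.038, became 0.0031 after the common median shift and -0.10 without Spcs1, so no direction is given for these genes as a group. Signal peptidase had the widest range of the 5 translocation and modification subgroups, from -0.25 for Spcs3 to 0.32 for Spcs1.

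Oligosaccharyltransferase, which attaches N-linked sugars, had a median of -0.02 over 6 genes, or 0.021 after the common median shift. Rpn1, a subunit near the ribosome, was at 9.89 and 9.72, a difference of -0.17, and Stt3a, the catalytic subunit that acts while the chain enters the channel, was at 10.78 and 10.63, a difference of -0.15. Dad1, a small subunit needed for the stability of the enzyme, was on the other side, at 9.80 and 10.06, a difference of 0.261 beside the 1.2-fold threshold of 0.263.

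The other subunits hardly differed. Stt3b, the catalytic subunit that glycosylates sites skipped during entry, was at 9.50 and 9.48, and Ddost and Rpn2 were at -0.019 and 0.029.

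**Figure D2:**
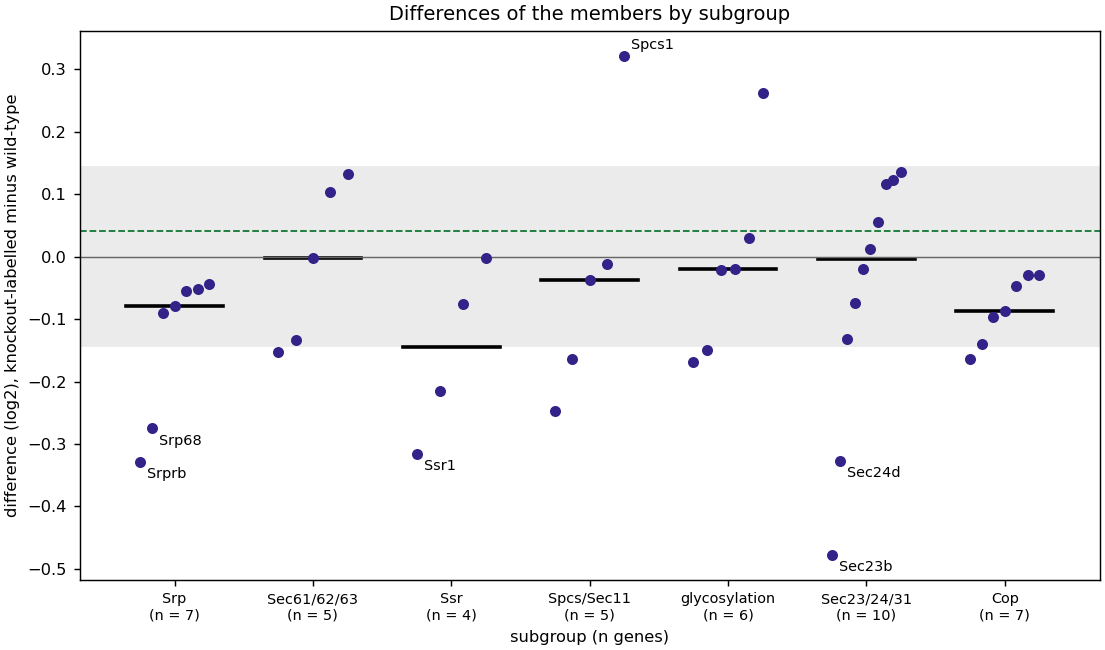
Difference in log2 level, knockout-labelled minus wild-type pool, for each gene (points) in the 7 subgroups, with the subgroup's median as a black bar. The grey band is the SD of 0.143 between probes of 1 gene on either side of 0, and the dashed line is the median of 0.04 over the 11924 genes. Genes past 1.2-fold are named, 5 below and 1 above.

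The COPII genes spread most. Their median over 10 genes was -0.0032, and the range ran from -0.48 to 0.13. Below 0 were 5 genes and above it 5, against 40.4% of all genes below 0. Sec23b, which stimulates the GTPase of the coat and forms its inner layer with a Sec24 subunit, was at 9.97 and 9.49. That is 1.39-fold lower, the largest difference of all 44 genes, and 0.948% of the 11924 genes had a lower difference. Sec24d, a cargo-binding subunit, was at 9.67 and 9.34, 1.25-fold lower.

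The upstream sequence of Sec23b is shown because its difference was the largest, and it was picked after its value was seen. The 250 bases before its first listed start, chr2:144555979-144556228 (+ strand), hold none of the 3 motifs.
Sec23b: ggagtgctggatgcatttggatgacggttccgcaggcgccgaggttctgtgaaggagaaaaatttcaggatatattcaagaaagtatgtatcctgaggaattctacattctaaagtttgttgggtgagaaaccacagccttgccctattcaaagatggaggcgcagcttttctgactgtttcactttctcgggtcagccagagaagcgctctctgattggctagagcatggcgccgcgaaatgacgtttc

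The rest of the inner coat lay within the probe SD. Sec23a, the paralogue of Sec23b, was at 9.31 and 9.45, a difference of 0.13. Sec24a was at 9.47 and 9.59, Sec24b at 7.52 and 7.57 and Sec24c at 9.57 and 9.50, which gives differences of 0.12, 0.055 and -0.074.

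The outer coat genes Sec13 and Sec31a, which form the cage around the vesicle, were at -0.019 and -0.13, with Sec31a at 9.87 and 9.73. Sar1a and Sar1b, the GTPases that start coat assembly, were at 0.013 and 0.12. Sar1b, known for its need in chylomicron export, was at 11.24 and 11.36. The median of the COPII genes was 0.038 after the common median shift and 0.013 without Sec23b, so no direction is given for them as a group.

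The COPI genes lay within a narrow range. All 7 were below 0, against 40.4% of all genes, with a median of -0.088 and a range from -0.16 to -0.029. Copz1, the zeta subunit, was at 10.43 and 10.27, and it alone exceeded the probe SD. Copg1, the gamma subunit, was at 9.02 and 8.88, a difference of -0.14. Copa, the alpha subunit that binds retrieval signals, was at -0.096 and Copb2, another subunit that binds them, at -0.088.

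The remaining subunits Arcn1, Copb1 and Cope were at -0.048, -0.030 and -0.029, with Cope at 10.75 and 10.72. No COPI gene reached 1.2-fold in either direction. After the common median shift the median was -0.047, with Copb1 and Cope above 0, at 0.011 and 0.012.

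Between subgroups, all 21 pairs had overlapping ranges. The largest gap between medians was 0.143, Ssr below the translocon genes. The probe SD of 0.143 is a spread between probes of 1 gene and does not measure such a gap. A stricter level filter, at the 60th percentile, gave 0.078 for this gap. The order of 4 of the 21 pairs turned under that filter, and that of 3 with means in place of medians. The medians of the signal recognition particle, Ssr and COPI genes were below 0 with and without the common median shift, at -0.038, -0.10 and -0.047 after it. The medians of the other 4 subgroups turned to positive values between 0.0031 and 0.039. The medians of all 7 subgroups lay below the median of all genes, a comparison that the shift cannot change. With 1 array per group, none of these orders was tested. The 27 genes of translocation and modification had a median of -0.056 and the 17 coat genes one of -0.048.

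Paralogues were compared in 7 pairs, 2 of which had differences of opposite sign. For 2 independent probes the gap would have an SD of 0.202. Sec23a lay 0.61 above Sec23b, 3.02 times that SD, and was the pair furthest apart. Sec61a2 lay 0.28 above Sec61a1, the other pair of opposite sign, and Sec24d lay 0.25 below Sec24c. The gaps of Stt3a and Stt3b (0.13), Sec11a and Sec11c (0.13), Sar1a and Sar1b (0.10) and Sec24a and Sec24b (0.068) were smaller than the SD.

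**Figure D3:**
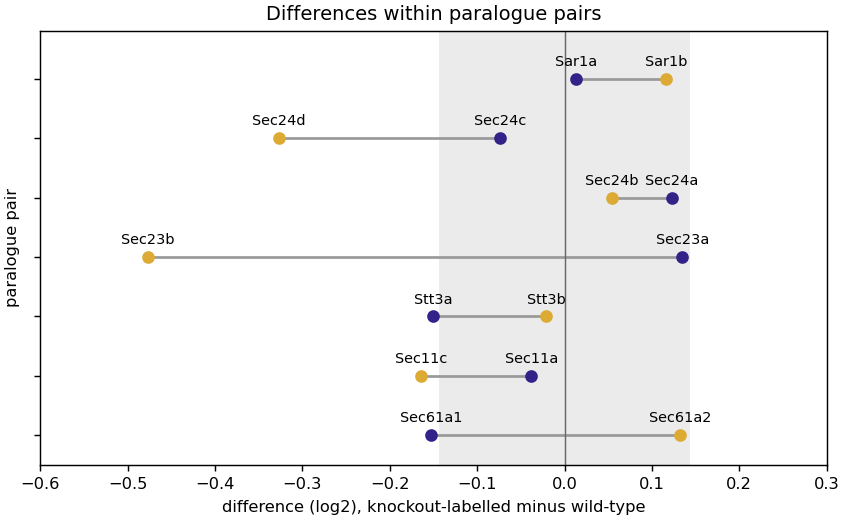
Difference in log2 level, knockout-labelled minus wild-type pool, of both genes in 7 paralogue pairs, joined by a line. The grey band is the SD of 0.143 between probes on either side of 0. Sec23b (-0.48) and Sec23a (0.13) are furthest apart.

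Some members are neighbours on a chromosome. Sec24a and Sar1b are next to each other in the order of protein-coding genes, and their differences were 0.12 and 0.12. Copg1, Rpn1 and Sec61a1 lie on chromosome 6 with 3 genes between Copg1 and Rpn1 and 5 between Rpn1 and Sec61a1, and were at -0.14, -0.17 and -0.15. The genes between them, named after their values were seen, lay on both sides of 0. Rab7, a GTPase of late endosomes, was at -0.26 and the linker histone gene H1f10 at -0.26, while Hmces, which protects abasic sites in DNA, was at 0.26 and the helicase gene Ruvbl1 at 0.13. Copa and Srp9 were the members on chromosome 1, which carries Fhl2. Across the 44 genes the difference was not related to level, with Pearson's r of 0.0020 and Spearman's rho of 0.065 over points that share the same 2 arrays.

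Other genes of the secretory route give the context, in 11 lists chosen for their roles. Beside the counts in these lists, 6.16% of all genes were at least 1.2-fold lower and 8.66% as much higher. The ER luminal folding factors were the lowest, with a median of -0.26 over 21 genes. Of these, 11 were at least 1.2-fold lower, against 5 of the 44 machinery genes, and 0 were as much higher. Creld2, which helps disulfide bonds form, was at 9.92 and 8.86, Sdf2l1, a partner of ER co-chaperones, at 9.08 and 8.42, and Hspa5, the chaperone BiP, at 11.52 and 10.94. This list was known to be low in these arrays when it was chosen, so it adds no independent evidence.

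ER-associated degradation genes, which remove misfolded proteins, had a median of -0.049 over 15 genes, with 3 at least 1.2-fold lower. The ubiquitin ligase gene Syvn1 was at 9.43 and 8.79, a difference of -0.64, Derl3 at 6.77 and 6.35, and Selenos at 9.38 and 9.11. The sensors and regulators of ER stress had a median of -0.025 over 14 genes, with 0 at least 1.2-fold lower and 2 as much higher, Atf4 and Ern1. Atf4, a translation-controlled transcription factor, was at 7.50 and 7.97, the sensor gene Ern1 at 8.52 and 8.85, and the sensor kinase gene Eif2ak3 at 7.53 and 7.31. Xbp1, whose RNA is spliced to make the active factor, was at 9.60 and 9.68, and Atf6 at 8.87 and 8.78, both named after their values were seen.

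The insertion helpers, which include the ER membrane protein complex and the route for tail-anchored proteins, had a median of 0.046 over 24 genes, with 1 at least 1.2-fold lower and 4 higher. Wdr83os was at 8.65 and 9.11, Tram2 at 5.93 and 6.34 and Get1 at 5.31 and 5.71. Get1, among the 4 higher genes, had a wild-type level below the level filter. It passed on its mean of 5.51, through the higher knockout-labelled level, so its difference is that of a dim probe. Tram1, a translocon partner seen on cotranslational entry and named after its value was seen, was at 10.97 and 10.67, a difference of -0.30. Other oligosaccharyltransferase subunits and enzymes of the sugar precursor had a median of 0.0071 over 24 genes, with 2 lower and 2 higher. Alg14 was at 7.27 and 7.65, Ostc, the subunit that links the enzyme to the channel, at 9.55 and 9.19, and Alg9 at 8.23 and 8.55.

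COPII organisers had a median of -0.033 over 14 genes, and 0 passed 1.2-fold. The syntaxin gene Stx5a was at 9.55 and 9.34, Ykt6 at 8.23 and 8.43, and Rab1a at 11.24 and 11.09. Cargo receptors had a median of 0.019 over 18 genes, with 2 lower and 1 higher. Tmed3 was at 7.85 and 7.30, a difference of -0.55, Mia3, which helps load collagen and other large cargo, at 8.97 and 8.67, and Tmed7 at 9.72 and 10.00. COPI regulators and retrieval receptors had a median of -0.010 over 17 genes, with 2 lower. Arfgap3, a GTPase-activating protein for Arf1, was at 7.36 and 6.80, a difference of -0.56, and Gbf1, which activates Arf1, was at 8.94 and 8.62. Stx18 was at 8.20 and 7.99.

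Genes of later stages and of the cargo had medians slightly above 0 but below the median of 0.04 over all genes. Golgi structure and tether genes had a median of 0.033 over 29 genes, with 0 at least 1.2-fold lower and 1 higher, and with Cog1 at 7.19 and 7.50, Cog4 at 8.68 and 8.90, and Golga2 at 7.33 and 7.13. Clathrin and AP-1 coat genes, a coat that leaves the Golgi, had a median of 0.03 over 11 genes, with Gga1 at 7.56 and 7.78, Ap1ar at 7.75 and 7.91, and Ap1m1 at 8.19 and 8.31. Secreted plasma proteins, the cargo of hepatocytes, had a median of 0.0051 over 25 genes, and all 25 lay between -0.068 and 0.13. Serpind1 was at 11.45 and 11.58, Cp at 11.00 and 11.12, and Hp at 12.46 and 12.55.

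**Figure D4:**
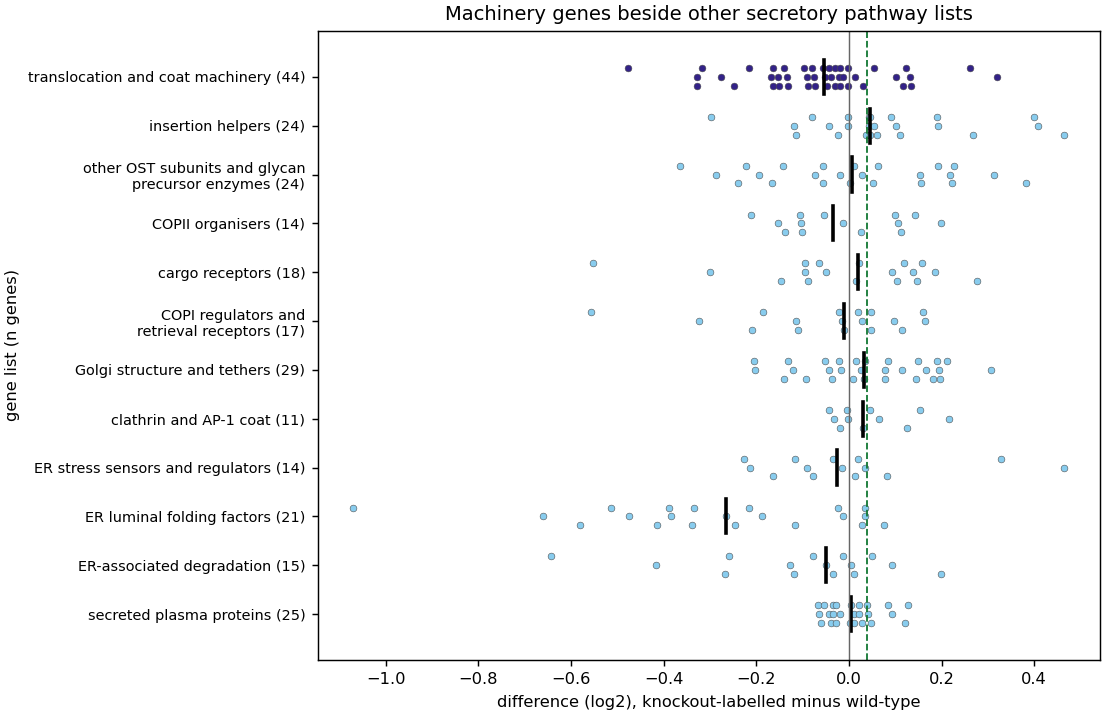
Difference in log2 level, knockout-labelled minus wild-type pool, for each gene past the level filter (points) in the machinery and in 11 other lists, with the median as a black bar and the number of genes in brackets. The dashed line is the median of 0.04 over all genes, and the luminal folding factors have the lowest median, -0.26.

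Over all 11 lists together, 212 genes past the filter that are no members had a median of 0.00070, against 0.04 over all genes. Of these 212, 106 were below 0, 21 at least 1.2-fold lower and 10 as much higher. Among all genes 40.4% were below 0, 6.16% at least 1.2-fold lower and 8.66% as much higher. The folding factors held 11 of the 21 lower genes. The medians of the 10 lists other than the folding factors ran from -0.049 to 0.046, beside -0.054 for the machinery. In the plot of cumulative shares, the curve of the 44 genes stands above that of all genes at 0, which shows the larger share of lower values.

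**Figure D5:**
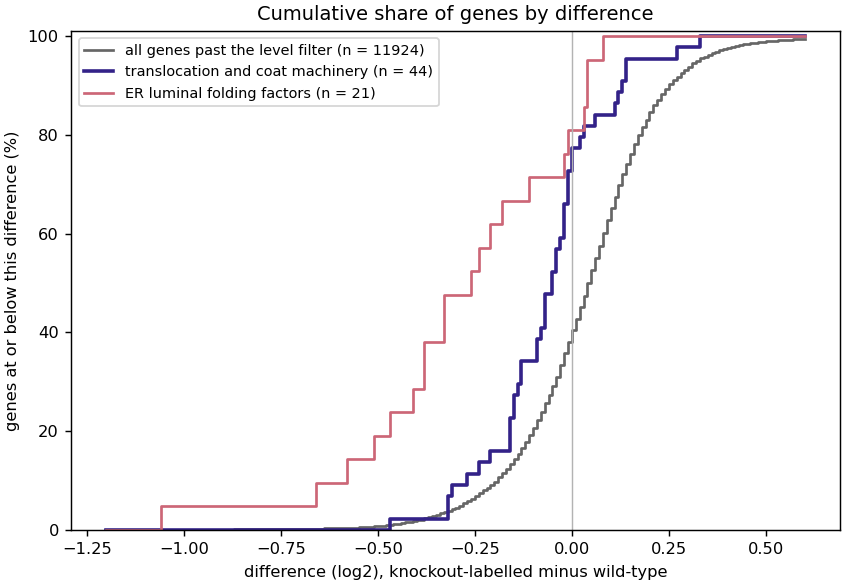
Percentage of genes at or below each difference in log2 level, knockout-labelled minus wild-type pool, for all 11924 genes past the level filter, the 44 machinery genes and 21 ER luminal folding factors. At 0 the curves stand near 40.4% for all genes and 77.3% for the machinery.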

How the data were processed

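Per the submitters' processing notes, the deposited log2 values were made with Affymetrix Expression Console 1.0, RMA and Partek 6.4, named without order or role. RMA corrects background, equalises the distributions of arrays and summarises oligonucleotides per probe set. It compresses differences of dim transcripts and hides changes in total RNA. The genome build used for the arrays is not given in the sources used here. The table holds 28853 probes on 2 arrays with medians of 5.76 and 5.71, and no detection call. Precision is limited by having 1 array per group.

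Gene names came from the platform annotation, in which 21789 probes had 1 gene, 1621 several and 5443 none. Of the first, 21698 matched the mouse gene table of GRCm38.p6 by Entrez identifier. Differences are log2 values with no further scaling, and no test was possible. The members and lists were chosen with earlier results of these data known. Values of both pools are given for members past 1.2-fold, the extremes of each subgroup and paralogues, and of other lists for the 3 genes with the largest differences past the filter. Alternatives were a common median shift, lowess removal of the trend on level (span 0.3), no level filter, the 60th percentile, means over probes, list means and lists without their most extreme member. Steps were tested on simulated data. Python 3.11.15, pandas 2.3.3 and statsmodels 0.14.6 were used.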

Additional observations from a re-analysis of the deposited data

How the results depend on the processing

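With 1 array per group, no value has a replicate error, and 30 of the 44 genes lay within the probe SD of 0.143. No paired analysis was possible because the result comes from no test and each group has 1 sample. The median of the 44 genes was below 0 under all 7 alternatives. Of these, leaving out the level filter could not change it, since all 44 genes passed. The 60th percentile gave the same median of -0.054. The others ran from -0.097 after lowess to -0.013 after the common median shift. That shift turned the medians of the translocon genes to 0.039, signal peptidase to 0.0031, oligosaccharyltransferase to 0.021 and COPII to 0.038, and those of the COPII organisers to 0.0077, COPI regulators to 0.031 and ER stress regulators to 0.016. It also brought Dad1 past 1.2-fold, so that 2 genes were higher. Srp68 lost its place, which left 4 genes lower, and lowess gave 6 lower, with Spcs3 at -0.30. Without the most extreme member the translocon median was 0.050, the COPII median 0.013 and the signal peptidase median -0.10. Lowess turned the insertion helpers to -0.0021, other oligosaccharyltransferase and sugar precursor genes to -0.031, cargo receptors to -0.030, Golgi genes to -0.028, the clathrin list to -0.021 and plasma proteins to -0.0050. As means, cargo receptors were at -0.0074 and ER stress regulators at 0.00056. The cause was not tested, and the common shift moves every gene by 0.041. Genes in the members' range of levels, a background chosen after the data were seen, had a median of 0.056.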
